A study of Mus musculus with 12 samples.

Results

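The core pluripotency factors examined here were Pou5f1, Sox2, Nanog, Klf2, Klf4, Klf5, Esrrb, Zfp42, Dppa5a and Tbx3. They were chosen by name, as the probes carrying these 10 gene symbols in the platform annotation. That gave 10 genes with 21 probes, of 19057 named genes and 45281 probes on the array. F9 is a mouse teratocarcinoma line that grows as undifferentiated, embryonic stem cell-like cells and turns into primitive and then parietal endoderm under retinoic acid and cyclic AMP. Total RNA of F9 cells was hybridised to 12 Illumina bead arrays in 6 groups of 2. Cells with a knock-down of Kdm3a (pRS-kdm3a), a demethylase of histone H3 lysine 9, were untreated (0 h), had 3 days of retinoic acid (72 h), or had 3 days of retinoic acid and then 3 more days of retinoic acid with cAMP (6 d). Control cells (CTL, wild-type Kdm3a level in the labels) had the same 3 conditions. The labels do not state whether the controls carry an empty construct or whether each line is a clone or a pool. They call the arrays of a group biological replicates, and p-values measure the spread between those arrays.

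Pou5f1 (Oct4, a POU-domain factor) and Sox2 (an HMG-box factor) bind neighbouring octamer and Sox motifs together and hold embryonic stem cells undifferentiated, with the homeobox factor Nanog. Klf2, Klf4 and Klf5 are zinc finger factors that bind GC-rich motifs, Esrrb is an orphan nuclear receptor, and Tbx3 is a T-box factor. These lie around the core of the network. Zfp42 (Rex1) and Dppa5a (Esg1) are widely used markers of the undifferentiated state. Klf4 and Tbx3 also have roles in differentiated tissues, and Tbx3 has been linked to extraembryonic endoderm.

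Promoter sequences are shown for the core factors Pou5f1, Sox2 and Nanog and for Zfp42, because Sox2 and Zfp42 fell together in the array data while Nanog did not pass the test. The RefSeq promoter table (GRCm38.p6) held 7 of the 10 members. Each run is the 250 bases before the gene's listed start, 5′ to 3′ on the gene's strand. Pou5f1 is at chr17:35505782-35506031 (plus strand), Sox2 at chr3:34649745-34649994 (plus), Nanog at chr6:122707239-122707488 (plus) and Zfp42 at chr8:43307010-43307259 (minus). Capitals mark the octamer core TTTGCAT, the Sox motif ACAATG and the nuclear receptor motif AGGTCA, on either strand.
Pou5f1: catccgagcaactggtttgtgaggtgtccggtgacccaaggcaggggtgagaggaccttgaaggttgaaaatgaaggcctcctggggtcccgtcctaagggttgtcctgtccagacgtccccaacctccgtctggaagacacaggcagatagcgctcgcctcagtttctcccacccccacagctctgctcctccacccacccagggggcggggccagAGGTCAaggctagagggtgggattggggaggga
Sox2: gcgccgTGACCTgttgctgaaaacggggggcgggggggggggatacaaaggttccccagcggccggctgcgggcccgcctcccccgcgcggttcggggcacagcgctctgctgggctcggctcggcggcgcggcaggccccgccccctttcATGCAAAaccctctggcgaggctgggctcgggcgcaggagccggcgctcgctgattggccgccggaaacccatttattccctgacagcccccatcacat
Nanog: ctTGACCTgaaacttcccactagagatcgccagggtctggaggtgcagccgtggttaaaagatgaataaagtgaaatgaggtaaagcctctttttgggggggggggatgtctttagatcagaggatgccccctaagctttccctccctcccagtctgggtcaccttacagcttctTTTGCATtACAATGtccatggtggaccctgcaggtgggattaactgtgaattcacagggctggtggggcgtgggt
Zfp42: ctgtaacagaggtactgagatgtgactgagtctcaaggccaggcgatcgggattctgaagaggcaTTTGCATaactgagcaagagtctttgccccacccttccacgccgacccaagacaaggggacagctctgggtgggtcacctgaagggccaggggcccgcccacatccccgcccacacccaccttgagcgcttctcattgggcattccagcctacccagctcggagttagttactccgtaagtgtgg

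TTTGCAT lies 99 bases before the start of Sox2 on the opposite strand, 75 bases before that of Nanog and 185 bases before that of Zfp42. It occurs in 4.06% of the 27025 windows of this length. ACAATG occurs in 11% of them and, among the 7 matched members, only in the Nanog window. There it follows TTTGCAT after 1 base. This composite, TTTGCATNACAATG, was found in 1 of the 27025 windows, that of Nanog. AGGTCA (13.8% of windows) lies 33 bases before the start of Pou5f1, and 244 and 248 bases before those of Sox2 and Nanog on the opposite strand. GGGTGG, searched for the Klf factors and not capitalised, occurs in 27.7% of windows, 4 times in Pou5f1, 2 times in Zfp42 and 1 time each in Klf2 and Esrrb. All motifs were searched on both strands, and the matches describe letters and not binding.

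All values below are log2 intensities after background correction and quantile normalisation, for the brightest probe of each gene, and values are not compared between probes. A gene was called where limma's adjusted p was under 0.05, over 11621 genes tested. All 10 members passed the filter on low signal, and the brightest probe of each was detected on 12 of 12 arrays. Of the 21 member probes 20 passed the filter. A second Klf5 probe was not detected on any array, and a second Esrrb probe on none of 72 h or 6 d. Between 15204 and 18471 probes were detected per array, raw array medians ran from 124.8 to 219.8, and the correlation within a pair of replicates ran from 0.963 in the knock-down at 6 d up to 0.993 in 72 h controls. Over 19450 undetected probes, 3 arrays resembled each other (r 0.427 to 0.45), namely replicate 2 of the knock-down at 0 h, the knock-down at 6 d and the control at 6 d. The 4 arrays of 72 h did so too (0.444 to 0.52), against 0.131 to 0.352 for all other pairs. An array effect shared by the 4 arrays of 72 h and the stage itself cannot be told apart. The samples are bulk RNA, in which fewer cells with a transcript and less of it per cell cannot be told apart.

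Kdm3a had 8.93 and 8.88 at 0 h, 8.17 and 8.06 at 72 h, with 7.76 and 7.53 at 6 d in the knock-down, against 9.97 and 9.98, 9.78 and 9.90, and 9.29 and 9.12 at the same stages in controls. Both knock-down arrays lay below both control arrays at every stage. Averaged over stages the knock-down had 36.5% of the control signal (log2 difference -1.45, adjusted p = 5.78e-04). Of the single stages only 72 h passed the test (-1.73, adjusted p = 0.0262). The values were -1.07 at 0 h (adjusted p = 0.123) and -1.57 at 6 d (adjusted p = 0.0675). Leaving out 1 array at a time, the averaged call held in 12 of 12 fits and the 72 h call in 2 of 12, those without either knock-down 6 d array (highest adjusted p = 0.905).

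With retinoic acid the members did not move as a block. Sox2 and Zfp42 fell, Tbx3 rose in both lines, and Klf4 rose in the knock-down at 72 h and in both lines by 6 d. At 72 h against 0 h, 4 of 10 members were called in the knock-down, where 16.4% of all genes were, and 3 of 10 in controls, where 14.8% were. At 6 d against 0 h, 4 of 10 were called in the knock-down (22.3% of all genes) and the same 4 in controls (22.2%). Pou5f1, Nanog, Klf2, Klf5, Esrrb and Dppa5a passed in none of these comparisons. The 2 contrasts of a line share its 0 h arrays. With 2 arrays a group, groups that do not overlap were common among all genes. At 72 h against 0 h, 31.7% did not overlap and were lower and 32.4% higher in the knock-down, and 34% and 32.4% in controls. At 6 d against 0 h these shares were 27.7% and 27% in the knock-down, and 31% and 28.7% in controls. The median log2 difference of the 10 members was -0.43 (knock-down) and -0.28 (control) at 72 h, and -0.47 (knock-down) and -0.57 (control) at 6 d, beside all-gene medians of -0.03 to -0.0028.

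**Figure D1:**
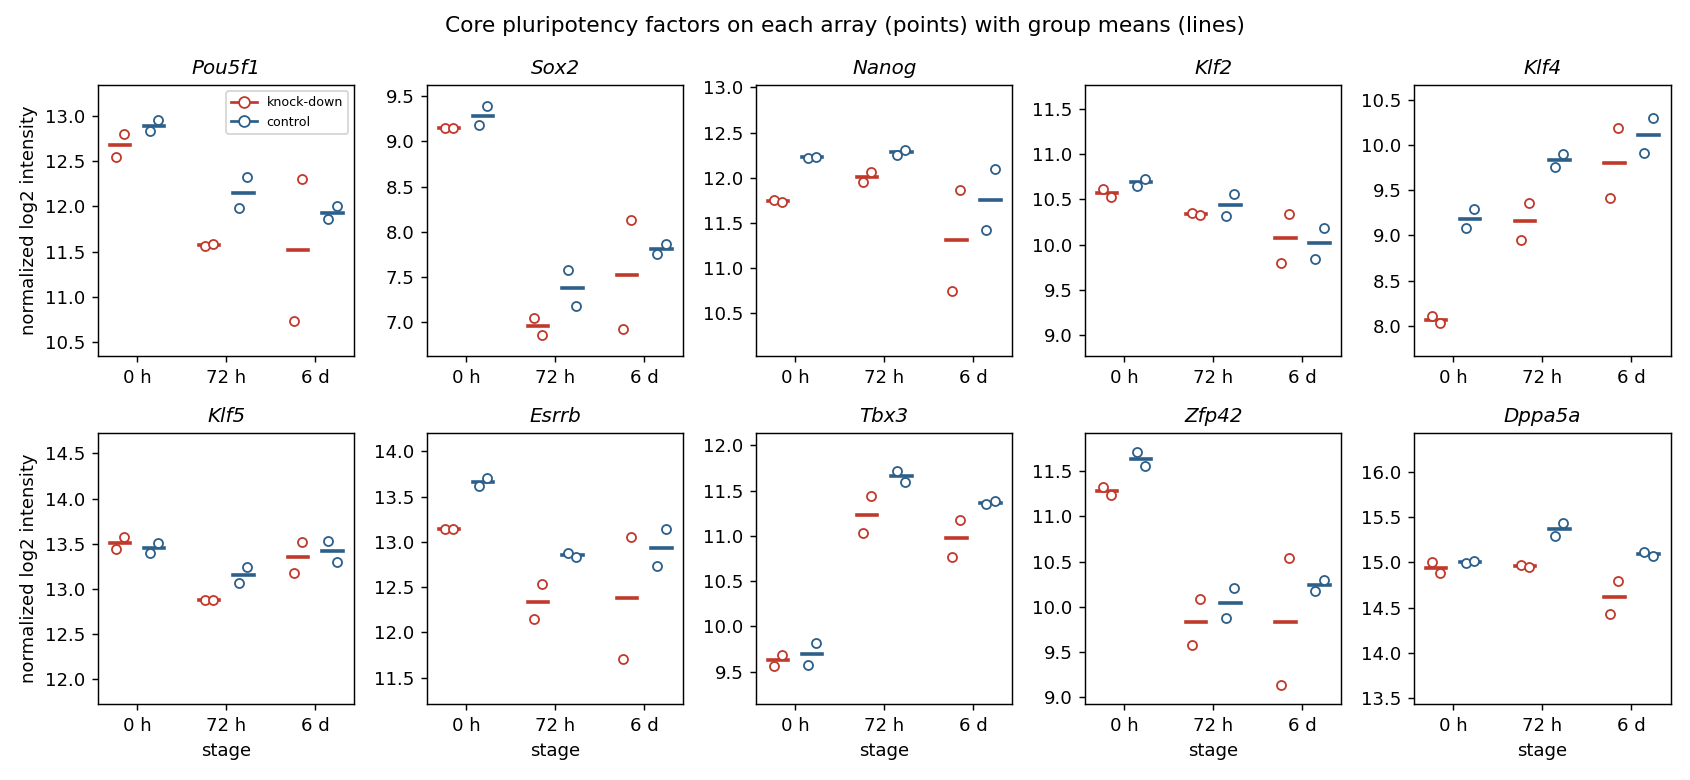
Normalised log2 intensity (y axis) of the 10 members at 0 h, 72 h and 6 d (x axis), with points for single arrays and lines for group means, knock-down (red) drawn left of control (blue), n = 2 arrays a group. Sox2 and Zfp42 lie lower at 72 h and 6 d than at 0 h in both lines, Tbx3 and Klf4 lie higher, and the 2 knock-down arrays of 6 d lie far apart for Pou5f1, at 10.73 and 12.30.

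Sox2 had 9.15 and 9.15 at 0 h, 7.05 and 6.86 at 72 h, with 6.92 and 8.13 at 6 d in the knock-down. In controls it had 9.18 and 9.39 at 0 h, 7.58 and 7.18 at 72 h, with 7.75 and 7.86 at 6 d. Every array after treatment lay below every untreated array of its line. By 72 h Sox2 fell to 21.9% of the 0 h signal in the knock-down (log2 difference -2.19 ± 0.33 SE, adjusted p = 0.00137) and to 26.7% in controls (-1.90 ± 0.33, adjusted p = 0.00318). By 6 d it was at 32.5% in the knock-down (-1.62, adjusted p = 0.00501) and 35.9% in controls (-1.48, adjusted p = 0.00861). The 6 d calls were lost with only the compared groups in the fit (knock-down, adjusted p = 0.0668) and without control 0 h replicate 2 (control, adjusted p = 0.0596). A second, dimmer Sox2 probe also lay lower at 72 h (-1.03 in the knock-down, -1.04 in controls), but it was detected on only 1 of 2 arrays at 6 d in each line. From 72 h to 6 d the probes differed in sign, with 0.57 on the brighter and -0.41 on the dimmer one in the knock-down, and 0.43 and -0.29 on them in controls.

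Pou5f1, the partner of Sox2, had 12.54 and 12.80 at 0 h, 11.56 and 11.58 at 72 h, with 10.73 and 12.30 at 6 d in the knock-down. In controls it had 12.83 and 12.95 at 0 h, 11.98 and 12.32 at 72 h, with 11.86 and 12.00 at 6 d. Treated and untreated arrays did not overlap in either line, and no difference passed the test. The knock-down had 46.5% of its 0 h signal at 72 h (log2 difference -1.10, 95% interval -1.97 to -0.24, adjusted p = 0.0818) and 44.9% at 6 d (-1.16, interval -2.02 to -0.29, adjusted p = 0.0571). Controls had 59.7% at 72 h (-0.74, adjusted p = 0.242) and 51.4% at 6 d (-0.96, adjusted p = 0.108). Leaving out 1 array of a pair takes that pair's spread out of the estimate that all groups share. The remaining array is then taken to vary like the other groups. A smaller adjusted p in such a fit, here and for other members, is therefore not a firmer result. For Pou5f1 the call turned on the spread between the 2 knock-down arrays of 6 d. Without replicate 1 of that group Pou5f1 passed at 72 h in the knock-down (-1.10, adjusted p = 0.00402) and controls (-0.74, adjusted p = 0.0271), and at 6 d in controls (-0.96, adjusted p = 0.0058). Without replicate 2 in its place these 3 adjusted p were the same, and Pou5f1 also passed at 6 d in the knock-down, at -1.94 (adjusted p = 4.45e-04).

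Nanog had 11.76 and 11.73 at 0 h, 11.96 and 12.07 at 72 h, with 10.75 and 11.87 at 6 d in the knock-down, and 12.22 and 12.23, 12.26 and 12.30, and 11.42 and 12.09 at those stages in controls. The 6 d arrays spread more than those of 0 h and 72 h. The difference from 0 h was 0.27 ± 0.33 (SE) at 72 h and -0.44 at 6 d in the knock-down, and 0.05 and -0.47 in controls, none past the test. A second Nanog probe, ILMN_1245732, gave another picture at 72 h, with -1.35 in the knock-down and -0.62 in controls, where the brighter probe ILMN_2706623 gave 0.27 and 0.05. From 72 h to 6 d the second probe gave 0.79 (knock-down) and 0.27 (control), against -0.70 and -0.52 for the brighter one. At 6 d against 0 h the probes had the same sign, with -0.56 on the second and -0.44 on the brighter in the knock-down, and -0.35 and -0.47 in controls. Without knock-down 6 d replicate 2, the brighter probe passed at 6 d against 0 h in the knock-down (-0.99, adjusted p = 0.0263).

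Zfp42, the Rex1 marker, had 11.32 and 11.24 at 0 h, 9.58 and 10.08 at 72 h, with 9.13 and 10.54 at 6 d in the knock-down. In controls it had 11.71 and 11.56 at 0 h, 9.88 and 10.21 at 72 h, with 10.17 and 10.30 at 6 d. All treated arrays lay below all untreated ones of the same line. At 72 h Zfp42 fell to 36.7% of the 0 h signal in the knock-down (log2 difference -1.45 ± 0.37 SE, adjusted p = 0.0241) and to 33.1% in controls (-1.59 ± 0.37, adjusted p = 0.0163). At 6 d it was at 36.7% in the knock-down (-1.44, adjusted p = 0.0184) and 37.9% in controls (-1.40, adjusted p = 0.021). The 72 h calls were lost without any 1 of the 4 arrays compared, the control 6 d call likewise, and the knock-down 6 d call without either 0 h array or without 6 d replicate 1 (-0.74, adjusted p = 0.0854). With median centring in place of quantile normalisation the 72 h values were -0.70 in the knock-down (adjusted p = 0.142) and -0.90 in controls (adjusted p = 0.0668).

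Dppa5a, the other marker of undifferentiated cells, had 15 and 14.88 at 0 h, 14.97 and 14.95 at 72 h, with 14.42 and 14.80 at 6 d in the knock-down, against 14.99 and 15.01, 15.29 and 15.44, and 15.12 and 15.07 in controls. No stage difference passed the test (-0.33 to 0.02 from 0 h in the knock-down, 0.09 to 0.36 in controls). The probe ranked 2 to 85 of 45281 in raw intensity, at 33.5% to 99.1% of the brightest probe of its array, and whether the signal saturates there was not tested.

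Klf4 had 8.11 and 8.03 at 0 h, 8.96 and 9.36 at 72 h, with 9.41 and 10.19 at 6 d in the knock-down. In controls it had 9.08 and 9.30 at 0 h, 9.76 and 9.90 at 72 h, with 9.92 and 10.30 at 6 d. Both lines stood higher at each later stage on their group means. In the knock-down Klf4 rose 2.12-fold at 72 h (log2 difference 1.09 ± 0.28 SE, adjusted p = 0.0231) and 3.32-fold at 6 d (1.73 ± 0.28, adjusted p = 0.00123). In controls it was 1.56-fold at 72 h (0.64, adjusted p = 0.154) and rose 1.90-fold by 6 d (0.92, adjusted p = 0.0354). All 3 Klf4 probes lay above 0 in these 4 comparisons. The knock-down 6 d call held in 22 of 22 alternative settings. The knock-down 72 h call was lost without any 1 of its 4 arrays (highest adjusted p = 0.161), and the control 6 d call without either control 0 h array, either control 72 h array or control 6 d replicate 2 (highest adjusted p = 0.176). The control 6 d call was also lost with only the compared groups in the fit (0.0573), without the 3 arrays that resembled each other (0.0578) and with a term for them (0.051). With median centring control Klf4 passed at 72 h too (1.41, adjusted p = 0.00212).

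The other Klf members differed from Klf4. Klf5 had 13.44 and 13.58 at 0 h, 12.88 and 12.87 at 72 h, with 13.18 and 13.52 at 6 d in the knock-down, against 13.40 and 13.51, 13.06 and 13.24, and 13.53 and 13.30 in controls. Its lowest arrays were those of 72 h in both lines (log2 difference from 0 h -0.63, adjusted p = 0.0597, in the knock-down and -0.30 in controls). Klf2 had 10.61 and 10.52, 10.35 and 10.33, and 9.80 and 10.34 at the 3 stages in the knock-down, against 10.64 and 10.73, 10.31 and 10.56, and 9.84 and 10.19 in controls. At 6 d Klf2 was at 70.9% of its 0 h signal in the knock-down (-0.50, adjusted p = 0.16) and 62.7% in controls (-0.67, adjusted p = 0.0631). Neither gene passed the test. At 72 h against 0 h Klf2 was at -0.23 in the knock-down and -0.25 in controls. These directions at 72 h depended on the scaling. With median centring in place of quantile normalisation Klf2 was at 0.48 in the knock-down and 0.43 in controls, and control Klf5 at 0.13. Klf2 passed at 6 d in controls without either knock-down 6 d array (adjusted p = 0.0289), and Klf5 at 72 h in the knock-down likewise (adjusted p = 0.0359).

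Tbx3 rose in both lines at both later stages. It had 9.56 and 9.69 at 0 h, 11.03 and 11.44 at 72 h, with 10.77 and 11.18 at 6 d in the knock-down, against 9.57 and 9.82, 11.71 and 11.60, and 11.35 and 11.39 in controls. Every treated array lay above every untreated one. At 72 h Tbx3 rose 3.05-fold in the knock-down (log2 difference 1.61 ± 0.23 SE, adjusted p = 9.28e-04) and 3.89-fold in controls (1.96 ± 0.23, adjusted p = 2.58e-04). At 6 d it was 2.55-fold in the knock-down (1.35, adjusted p = 0.00169) and 3.19-fold in controls (1.67, adjusted p = 4.22e-04). All 4 Tbx3 probes lay above 0, between 0.50 and 1.79 in the knock-down and 0.23 and 2.30 in controls, and the 4 calls held in 22 of 22 alternative settings.

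Esrrb had 13.15 and 13.14 at 0 h, 12.15 and 12.53 at 72 h, with 11.70 and 13.06 at 6 d in the knock-down, against 13.62 and 13.71, 12.88 and 12.83, and 12.73 and 13.14 in controls. The treated arrays did not overlap the untreated ones in either line. No difference passed the test. The knock-down had 57.3% of its 0 h signal at 72 h (-0.80, adjusted p = 0.155) and 58.9% at 6 d (-0.76, adjusted p = 0.16), and controls had 57% at 72 h (-0.81, adjusted p = 0.165) and 60.4% at 6 d (-0.73, adjusted p = 0.18). As for Pou5f1, leaving out either knock-down 6 d array brought Esrrb past the test at 72 h in the knock-down (adjusted p = 0.0234) and controls (adjusted p = 0.0241).

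**Figure D2:**
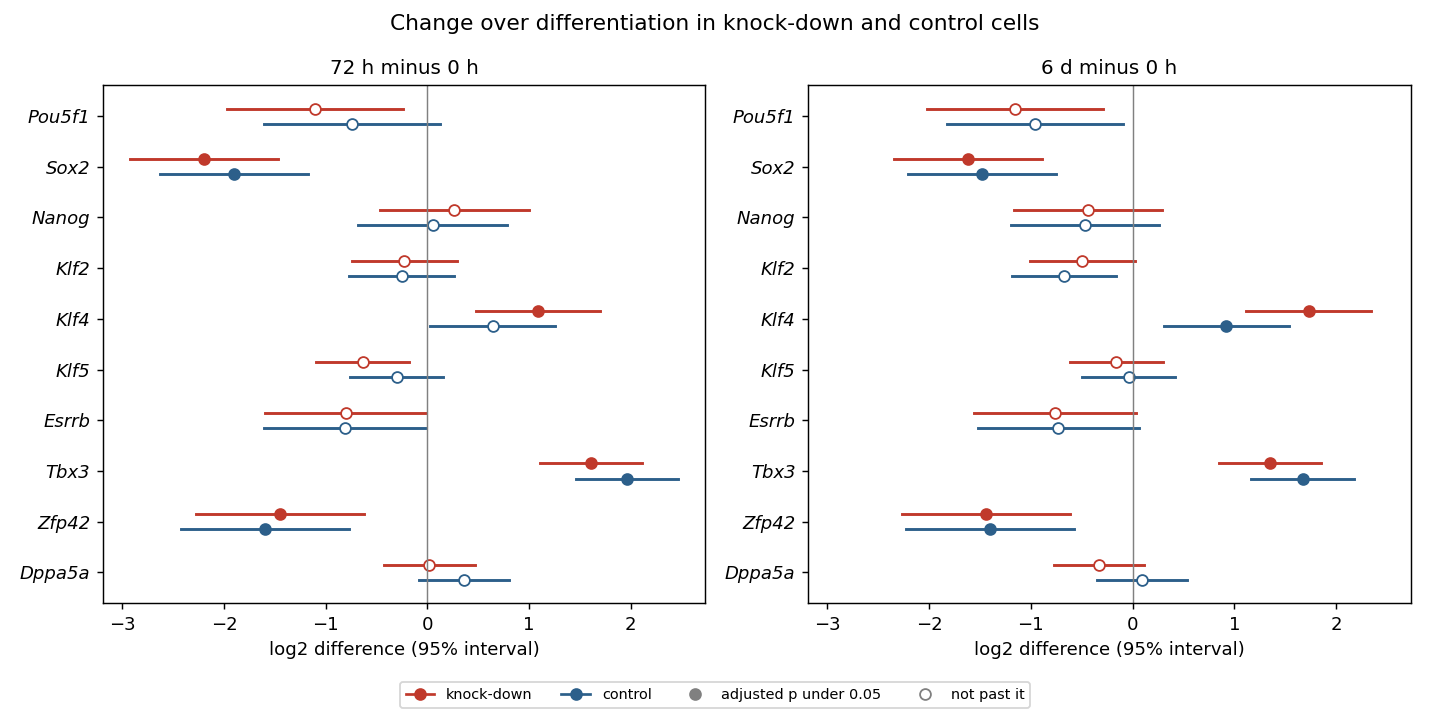
Log2 difference from 0 h (x axis) at 72 h and at 6 d for each member (rows), knock-down above control, with 95% intervals from limma and filled points where the adjusted p was under 0.05, n = 2 arrays a group. Sox2 (-2.19 in the knock-down, -1.90 in controls, at 72 h) and Zfp42 lie to the left of 0, Tbx3 (1.61 and 1.96) to the right, and Klf4 is filled in 3 of its 4 positions.

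Between 72 h and 6 d, when cAMP was added, 0 of 10 members passed in the knock-down (3.83% of all genes did) or in controls (2.53%). At an unadjusted p under 0.05 there were 2 in the knock-down, Klf4 (0.65) and Klf5 (0.47), and 0 in controls, against 21.2% and 18.8% of all genes. The member medians were -0.02 in the knock-down and -0.07 in controls. Thus the changes of Sox2, Zfp42 and Tbx3 were already measured at 72 h. Leaving out knock-down 6 d replicate 1 brought Sox2 past the test in the knock-down (1.17, adjusted p = 0.0347), and leaving out replicate 2 brought Nanog past it (-1.26, adjusted p = 0.0372).

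Set directly against controls, knock-down cells showed no member past the test at any stage. At 0 h the count was 0 of 10 (0.0516% of all genes passed), at 72 h 0 of 10 (0.00861%), at 6 d 0 of 10 (0% of all genes) and averaged over stages 0 of 10 (0.413%). At an unadjusted p under 0.05 the counts were 1 at 0 h (Klf4), 1 at 72 h (Klf4), 1 at 6 d (Dppa5a) and 4 averaged (Klf4, Esrrb, Dppa5a and Tbx3). Among all genes those shares were 8.15%, 3.45%, 7.85% and 12%. The log2 difference was below 0 for 9 of 10 members at 0 h, 10 of 10 at 72 h and 9 of 10 at 6 d, against 49.8%, 48.9% and 50.9% of all genes. It was below 0 at all 3 stages for 8 of 10 members and 19.9% of all genes. The members share arrays and can shift together, so these counts are not separate evidence per gene. Within a group, replicate 1 was lower for 10 of 10 members (knock-down 6 d) and 9 of 10 (control 0 h). In the other groups this count ran from 3 (knock-down 0 h) to 8 (control 6 d). The counts alone do not separate a knock-down effect from a shift shared on an array. At 6 d the count turned on 1 knock-down array, as given below. The member medians were -0.18 at 0 h, -0.41 at 72 h and -0.40 at 6 d, where the all-gene medians were within 0.01 of 0 and the 10th percentiles were -0.43, -0.33 and -0.44.

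On the brightest probes, Klf4 had the largest difference between the lines of the 10 members at 0 h, at 72 h and averaged over stages, while at 6 d 6 members differed by more. At 0 h it had 8.11 and 8.03 in the knock-down and 9.08 and 9.30 in controls, groups that did not overlap. The knock-down had 46.1% of the control signal (log2 difference -1.12 ± 0.28 SE, 95% interval -1.73 to -0.51, adjusted p = 0.225), and the other 2 Klf4 probes gave -0.91 and -1.27. At 72 h it had 62.7% (-0.67, adjusted p = 1) and at 6 d 80.8% (-0.31, adjusted p = 0.902). The other 2 probes gave -0.33 and -0.50 at 72 h, and differed in sign at 6 d (-0.32 and 0.12). Averaged over stages Klf4 was at 61.6% (-0.70 ± 0.16, interval -1.05 to -0.35, adjusted p = 0.0921). Over all settings the averaged value ran from -0.83 (without knock-down 6 d replicate 2) to -0.54. It was -0.75 without the 3 arrays that resembled each other. Klf4 passed the averaged test with a term for those arrays (-0.76, adjusted p = 0.0345) and with the replicate number as a block (-0.70, 0.0468). The 2 settings on the 3 arrays were chosen after seeing the data.

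On the brightest probes the remaining members lay closer together. The second Nanog probe, ILMN_1245732, gave -1.20 at 72 h and -0.78 averaged over stages, against -0.27 and -0.40 on the brighter Nanog probe. At 72 h its 2 knock-down arrays had 7.03 and 8.39. Averaged over stages the log2 difference was -0.53 for Esrrb (adjusted p = 0.334), -0.40 for Pou5f1 (0.548), -0.40 for Nanog (0.452), -0.32 for Zfp42 (0.633), -0.32 for Dppa5a (0.301), -0.30 for Tbx3 (0.404), -0.28 for Sox2 (0.639), -0.10 for Klf5 (0.839) and -0.05 for Klf2 (0.933), the values in parentheses being adjusted p. Both knock-down arrays lay below both control arrays for 7 members at 0 h (18.7% of all genes), 8 at 72 h (19%) and 2 at 6 d (13.1%), and for none at all 3 stages (2.09%). Klf4, Pou5f1, Sox2, Nanog and Esrrb did so at 0 h and at 72 h. Only Dppa5a and Tbx3 did so at 6 d, where Dppa5a had 14.42 and 14.80 in the knock-down and 15.12 and 15.07 in controls. For Tbx3 the difference at 6 d was -0.39 on the brightest probe, and 0.38, -0.12 and -0.26 on its other probes.

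**Figure D3:**
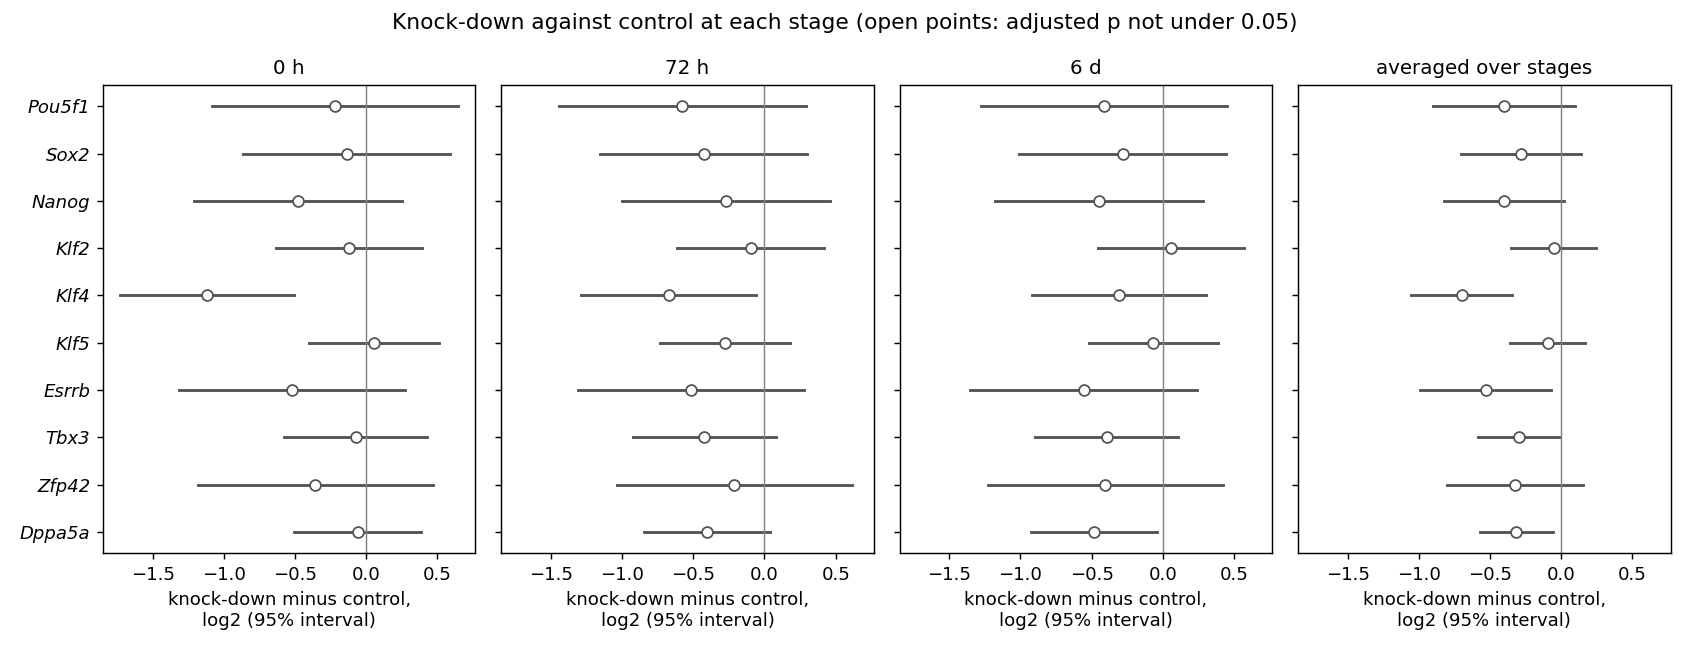
Log2 difference of knock-down minus control (x axis) for each member (rows) at 0 h, 72 h and 6 d and averaged over stages (panels), with 95% intervals from limma and open points because no adjusted p was under 0.05. Klf4 at 0 h lies farthest from 0, at -1.12, and most points lie left of 0.

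No member's stage change differed between the lines past the test. The interaction was called for 0 of 10 members at 72 h and 0 of 10 at 6 d, and for 0% of all genes. At an unadjusted p under 0.05 there were 0 members beside 3.52% of all genes at 72 h and 5.75% at 6 d. The largest value was that of Klf4 at 6 d, where the rise was larger in the knock-down by 0.81 on the log2 scale (95% interval -0.06 to 1.68, adjusted p = 0.877). For Sox2 the interval at 72 h was -1.32 to 0.74, and for Tbx3 -1.06 to 0.36, so differences of those sizes are not excluded by 2 arrays a group.

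The 2 knock-down arrays of 6 d differed in the members as a group. Replicate 1 was lower than replicate 2 for 10 of 10 members, from -0.34 (Klf5) to -1.57 (Pou5f1), where it was lower for 53.5% of all genes. The gap was -1.40 for Zfp42, -1.35 for Esrrb, -1.20 for Sox2 and -1.12 for Nanog, so 5 members exceeded 1 log2 unit, as 4.72% of all genes did. The median gap was -0.95 over members and -0.05 over all genes. In the other 5 groups the member median lay between -0.14 and 0.02. Replicate 1 was lower there for 3 (knock-down 0 h) to 9 (control 0 h) of 10 members, beside 48.4% to 54.1% of all genes. On these 2 arrays the 30 tested genes of the wider pluripotency list averaged 8.17 in replicate 1 and 8.67 in replicate 2, and 14 primitive endoderm markers averaged 11.78 and 11.52, with all 14 detected on both. The endoderm average was higher in replicate 1 in the other 5 groups too, with 12.01 and 11.67 in the control at 6 d. Replicate 2 of the knock-down at 6 d is also 1 of the 3 arrays that resembled each other. The part of these in the gap was not tested.

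**Figure D4:**
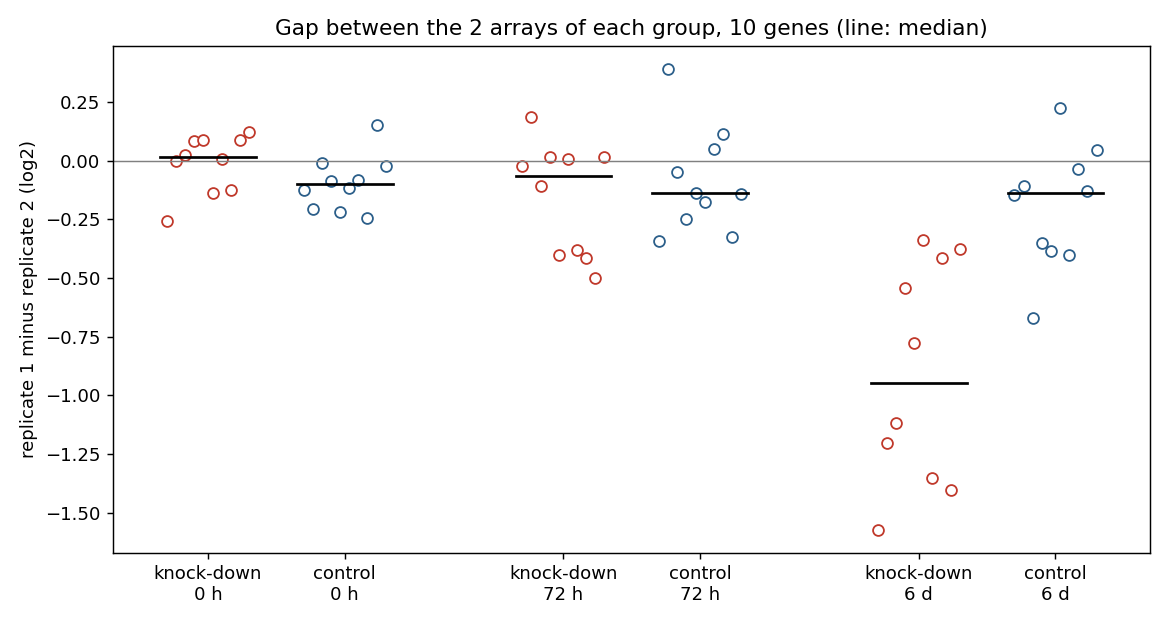
Replicate 1 minus replicate 2 in log2 units (y axis) for the 10 members in each of the 6 groups (x axis), with a point per gene and a line at the median. The knock-down at 6 d has a median of -0.95 with all points below 0, and the other medians lie between -0.14 and 0.02.

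The comparison of the lines at 6 d rested on that pair. Without knock-down 6 d replicate 1, 2 of 10 members lay below the controls and the median was 0.11, with Pou5f1 at 0.37. Without replicate 2, 10 of 10 lay below and the median was -0.79, with Pou5f1 at -1.20 and Esrrb at -1.23. No member passed at 6 d in either case. Averaged over stages, leaving out replicate 2 brought Pou5f1 (-0.66, adjusted p = 0.0269), Klf4 (-0.83, 0.0201) and Esrrb (-0.76, 0.0215) past the test.

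Of 39 other genes listed for the pluripotency network, 33 were on the array and 30 were tested. By 72 h 11 fell and 1 rose in the knock-down, and 7 fell and 1 rose in controls. Of all genes 7.61% fell and 8.79% rose in the knock-down by then, and 6.69% fell and 8.11% rose in controls. By 6 d 18 fell and 1 rose in the knock-down, and 17 fell and 0 rose in controls. Of all genes 10.2% fell and 12.1% rose in the knock-down by 6 d, and 10% fell and 12.2% rose in controls. The list's median log2 difference at 6 d was -1.31 in the knock-down and -1.03 in controls, beside -0.03 over all genes in each. Dnmt3l, a cofactor of de novo DNA methylation, was at -3.88 in the knock-down (adjusted p = 2.79e-06) and -3.64 in controls (adjusted p = 4.19e-06) at 6 d. Utf1, a chromatin-bound factor of undifferentiated cells, was at -3.18 and -2.91, and Gdf3, a TGF-beta family ligand, at -3.01 and -2.59. The 1 gene that rose at 72 h in both lines was Lefty1, a Nodal antagonist (2.76 in the knock-down, 2.49 in controls). Between knock-down and control 0 of the 30 passed at any stage, where 0% to 0.0516% of all genes did. The 6 d counts of falls were 13 without knock-down 6 d replicate 1 and 20 without replicate 2 in the knock-down, and 11 without control 0 h replicate 2 or control 6 d replicate 1 in controls. At 72 h the falls numbered 5 without knock-down 72 h replicate 1 and 6 without knock-down 0 h replicate 2 in the knock-down, and 4 in controls without any 1 of the 4 control arrays compared.

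**Figure D5:**
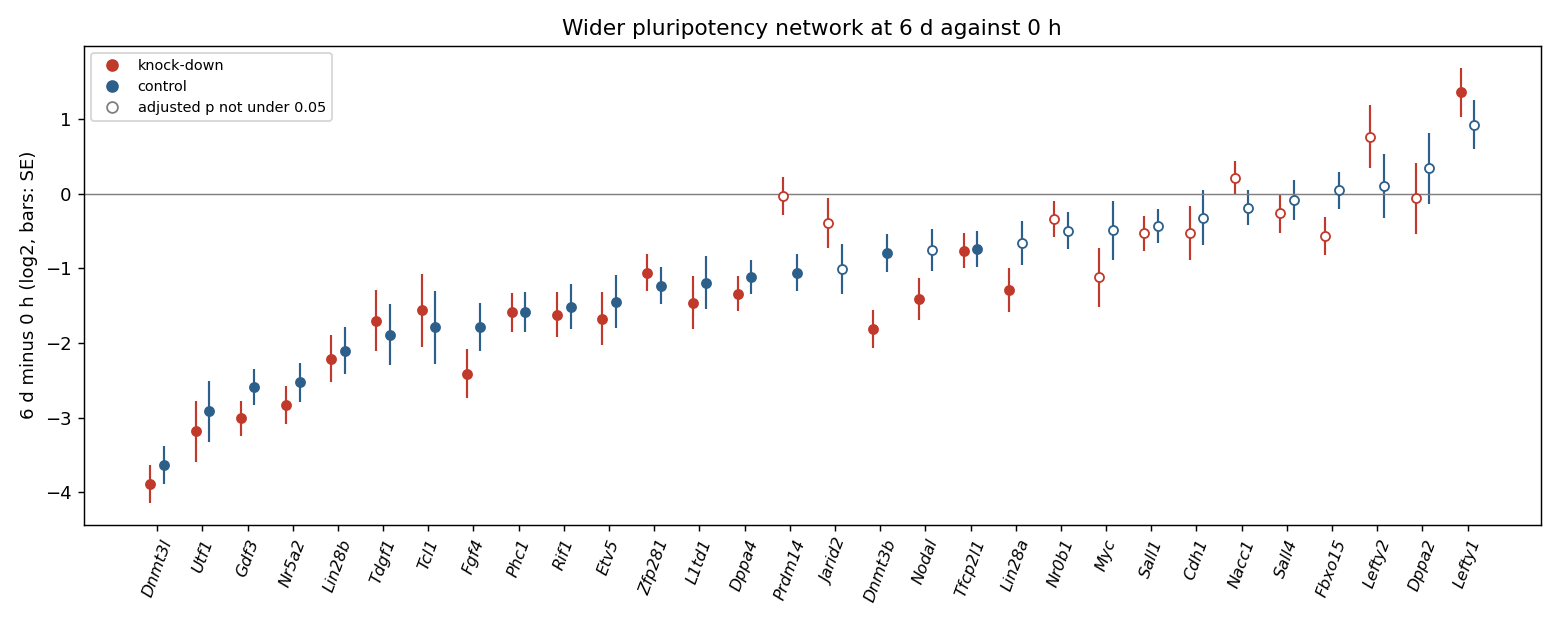
Log2 difference of 6 d minus 0 h (y axis, bars show the SE) for the 30 tested genes of the wider pluripotency list (x axis), knock-down and control, filled where the adjusted p was under 0.05. Of these, 18 in the knock-down and 17 in controls are filled below 0, with Dnmt3l, Utf1 and Gdf3 lowest.

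Of 11 LIF-STAT3 pathway genes, which relay the cytokine that keeps mouse stem cells undifferentiated, 0 rose and 2 fell by 72 h in the knock-down, and 2 rose and 1 fell in controls. By 6 d 6 rose and 1 fell in the knock-down, and 5 rose and 2 fell in controls. Among all genes 12.1% rose and 10.2% fell in the knock-down, and 12.2% and 10% in controls, by 6 d, and at 72 h each share was between 6.69% and 8.79%. Gbx2, a homeobox target of STAT3, was at -2.47 in the knock-down and -2.78 in controls, and the kinase gene Jak2 at 1.85 and 2.05. The cytokine gene Lif was called in the knock-down (2.08) and Stat3 in controls (1.22). The controls' 6 d count was 1 rise and 1 fall without control 0 h replicate 1, and 2 rises and 2 falls without control 6 d replicate 2. Without knock-down 0 h replicate 1, the knock-down had 3 rises and 1 fall, and its Jak2 call was lost (adjusted p = 0.0837). The 72 h counts were 0 in the knock-down without any 1 of the 4 arrays compared, and 1 without either control 72 h array, while controls had 0 or 1 without any 1 of their own 4.

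Among 13 other tested Klf and Sp genes 1 rose and 3 fell by 6 d in the knock-down, and 1 rose and 4 fell in controls, beside the same all-gene shares of 12.1% and 10.2% (knock-down) and 12.2% and 10% (control). The 1 rise of 13 is not above those shares. Klf6, a widely expressed zinc finger factor, was the gene that rose in both (1.18 in the knock-down, 1.39 in controls). Sp5, a Wnt target, was undetected at 6 d in controls and at least 4.47-fold lower than at 0 h. The control counts were 0 rises and 1 fall without control 0 h replicate 1, and 1 rise and 2 falls without control 0 h replicate 2 or control 6 d replicate 2. The knock-down Klf6 call was lost without 0 h replicate 1 or 6 d replicate 1 (highest adjusted p = 0.133). Among 15 other tested Sox and Pou genes 5 rose and 2 fell by 6 d in the knock-down, and 5 rose and 3 fell in controls, where the falls in the knock-down were near the all-gene share. Sox17, an endoderm factor, was at 4.93 in the knock-down. In controls it was undetected at 0 h, and 6 d cells were higher by at least 19-fold. Sox4 was at 2.91 and 3.03, while Sox9, undetected at 0 h in either line, was higher by at least 5.30-fold (knock-down) and at least 4.52-fold (control). Between knock-down and control, 0 genes of these 3 lists passed at any stage.

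The differentiated cell type was read from its own markers. All 14 primitive endoderm markers on the array rose by 72 h and by 6 d in both lines, with median log2 differences at 6 d of 4.94 in the knock-down and 4.95 in controls. At 0 h 4 of the 14 were undetected on both arrays in the knock-down and 7 of 14 in controls. One of them, Gata6, was at least 2.65-fold higher in untreated knock-down cells than in untreated controls, where it was undetected (adjusted p = 0.0434), a call lost in 10 of 12 fits that left out 1 array. Markers of other cell types were also examined. Detected on both arrays of a group were 1 to 6 of 10 trophoblast markers, 1 to 4 of 12 primed epiblast and neuroectoderm markers, 0 to 2 of 11 mesoderm markers and 1 to 3 of 11 fibroblast markers. The trophoblast markers were detected most often in the knock-down, 6 of 10 at 72 h and 6 of 10 at 6 d, with 2 of 10 undetected on both arrays at 6 d. The mean log2 intensity of the 7 that passed the filter on low signal was 6.63 and 6.12 at 6 d in the knock-down and 6.42 and 6.21 in controls. At 0 h it was 5.69 and 5.54 in the knock-down and 5.11 and 5.27 in controls. Of 7 tested, 2 rose by 6 d in the knock-down and 3 in controls, where 12.1% and 12.2% of all genes rose. Plac1, a placental gene, was undetected at 0 h and higher by at least 2.98-fold in the knock-down and 9.43-fold in controls. Gata3, a GATA factor of trophoblast, was higher by at least 2.23-fold in the knock-down and 1.87-fold in controls. Eomes, a T-box factor, was called only in controls (1.29), a call lost in 5 of 12 fits that left out 1 array. The part of these other cell type markers in the members' values was not tested.

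Likeness of pattern was measured over the 6 group means, each centred on the gene's own mean, as the root mean square log2 difference. For Sox2 the most alike genes were Rnf125 (0.121) and Gtsf1l (0.122), where the median over all genes was 0.91. For Zfp42 they were Lexm (0.0862) and Itgb7 (0.0925, median 0.744). For Klf4 they were Il17rc (0.169) and St3gal5 (0.181, median 0.733), and for Tbx3 Hoxb6 (0.107) and Sirpa (0.117, median 0.854). These are descriptions over 6 points that share the arrays.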

How the data were processed

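The authors deposited, per the file headers, for every array the non-normalized intensity of 45281 probes with its detection p-value, and a table of processed intensity values. The processed columns share nearly equal medians (184.1 to 184.4) and were used only as the alternative without background correction. Scanner, software and genome build are not given in the sources used here. RNA labelling used 200 ng of total RNA, per the labels' protocols.

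Background was corrected with nec in limma 3.58.1 (R 4.3.3), which used the detection p-values and an offset of 16, and the values were taken to log2 and quantile normalised. A probe was kept where 2 or more arrays had a detection p under 0.05 (21525 probes), and the brightest kept probe stood for its gene (11621 genes). Symbols came from the platform annotation (34885 probes with 1 symbol, 18 with several, 10378 with none). One mean per group was fitted to all 12 arrays with lmFit, and eBayes added 5.01 prior to 6 residual degrees of freedom, and p-values were adjusted by Benjamini-Hochberg over all genes within each of 12 comparisons. A gene not detected on any array of a group has a bound ("at least"), from the lowest signal among detected probes. The arrays' number limits the precision.

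The members and gene lists (wider pluripotency network, LIF-STAT3, other Klf and Sp, other Sox and Pou, primitive endoderm, trophoblast, primed epiblast and neuroectoderm, mesoderm and fibroblast) were chosen with earlier results of these data known. All members and Kdm3a are named, with up to 3 called genes of largest change from a list and the 2 genes most alike to each called member. Alternatives were the background correction, offset, scaling, filter, probe rule, samples in the fit, replicate block, each array left out, and, chosen after seeing the data, the 3 arrays that resembled each other left out or given a term. The procedure was tested on simulated data.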

Additional observations from a re-analysis of the deposited data

How the results depend on the processing

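Over 22 alternative settings, Sox2 at 72 h, Tbx3 at 72 h and 6 d, each in both lines, and Klf4 at 6 d in the knock-down kept their calls. Between knock-down and control at a single stage, 0 members passed in any setting, and the smallest adjusted p was 0.0613 (Pou5f1 at 6 d without knock-down 6 d replicate 2). In fits that left out 1 array, the number of members called ranged from 0 to 3 for knock-down against control averaged over stages, 2 to 7 at 72 h against 0 h, 3 to 8 at 6 d against 0 h and 0 to 1 at 6 d against 72 h in the knock-down, and 2 to 5 at 72 h against 0 h and 1 to 7 at 6 d against 0 h in controls. From 72 h to 6 d in the knock-down, Pou5f1 was at 0.73 without knock-down 6 d replicate 1 and -0.84 without replicate 2 (-0.05 with all arrays). Esrrb was at 0.72 and -0.64, and Zfp42 at 0.71 and -0.70, in those fits (0.04 and 0.0032 with all arrays), and at -0.64 and -0.70 without the 3 arrays that resembled each other. The cause was not tested. In all, 97 member values changed sign under some setting, these included, 17 of them without knock-down 6 d replicate 1 and 18 with median centring.

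With median centring the median of all genes moved by 0.61 (knock-down) and 0.58 (control) at 72 h against 0 h, and by -0.42 and -0.45 at 6 d against 72 h. The split of all called genes was then 4333 higher and 288 lower at 72 h in the knock-down (1021 and 884 with quantile normalisation) and 4009 and 216 in controls (942 and 777). At 6 d against 72 h it was 220 and 1996 in the knock-down (267 and 178) and 182 and 2029 in controls (179 and 115). At 6 d against 0 h it was 1725 and 503 in the knock-down (1408 and 1188) and 1629 and 572 in controls (1417 and 1162), and for the average of knock-down against control 39 and 99 (21 and 27). Members called at 6 d against 72 h became 1 in controls (Klf2) and 1 in the knock-down (Nanog).

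With only the compared groups in the fit, 6 members passed at 72 h in controls and 2 (Klf4 and Tbx3) at 6 d against 0 h in the knock-down. Without the 3 arrays, 6 passed at 72 h and 7 at 6 d against 0 h in controls, 8 at 6 d against 0 h and 1 (Nanog) at 6 d against 72 h in the knock-down, and 3 (Pou5f1, Klf4 and Esrrb) in the average of knock-down against control. With a term for these arrays, 1 passed in that average (Klf4) and 1 at 6 d against 72 h in the knock-down (Nanog). Replicate deviations correlated over 0.1 in 7 of 15 pairs of groups (-0.111 to 0.542, highest between the 6 d groups). With the replicate block, 1 member, Klf4 (adjusted p = 0.0468), passed in the average.

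Counts over all genes moved by over 1.5 times as follows. Leaving out 1 array gave 3 to 354 for the average of knock-down against control (48), 0 to 6 at 0 h (6), 0 to 1 at 72 h (1) and 0 to 69 at 6 d (0). It gave 817 to 2512 at 72 h against 0 h (1905), 28 to 523 at 6 d against 72 h (445) and 1562 to 2889 at 6 d against 0 h (2596) in the knock-down, and 606 to 2245 (1719), 26 to 615 (294) and 1428 to 3112 (2579) in controls. The highest came without a knock-down 6 d array, and such fits take a lone array to vary like the other groups. Without the 3 arrays the counts were 374 for the average, 0 at 0 h and 1 at 6 d, 1208 at 6 d against 72 h in the knock-down, and 3067 at 72 h against 0 h and 477 at 6 d against 72 h in controls. The average was 133 without background correction, 126 with an offset of 50, 138 with median centring, 92 with the block and 209 with the term. At 0 h there were 3 without the filter, 0 with only the compared groups and 1 with the term. At 72 h there were 2, 2, 6 and 2 without correction, with the offset, with median centring and with the mean of probes. At 6 d there were 8, 4 and 7 under the first 3 of these, and 1 each without the filter, with a stricter one and with the term. With median centring, only the compared groups and the term, 6 d against 72 h gave 2216, 19 and 774 in the knock-down and 2211, 182 and 534 (442 with the block) in controls, and 72 h against 0 h gave 4225, 3089 and 2616 in controls. In the knock-down 72 h against 0 h gave 4621 with median centring, and 6 d against 0 h 1059 with only the compared groups.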
